A study of Mus musculus with 9 samples.

Results

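Binding of Hoxa11 and Hoxa13 in the limbs of mouse embryos was mapped with ChIP-seq, in which DNA bound by a protein is precipitated with an antibody and sequenced, and the regions described here are the 277 Hoxa11 sites at which Hoxa13 was also found at every stage sampled. They were chosen by overlap of peaks alone. A peak of Hoxa11 replicate 1 and a peak of replicate 2 had to share at least 1 bp and were merged to 1 interval, and that interval had to share at least 1 bp with a Hoxa13 peak in each of the lists of E11.0, E11.5 and E12.5 (E for embryonic day). Of 1023 Hoxa11 sites of both replicates, 277 (27.1%) met the rule, out of 243649 peaks in the 5 lists. They are called all-stage sites below. Whether Hoxa13 overlapped them is therefore not a result.

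All embryos were wild type of the ICR strain, and both antibodies were made by the submitters. Hoxa13 was precipitated from the autopod at E11.0 (11 pairs for the immunoprecipitation), from the whole limb buds of 1 litter at E11.5, and from limb bud tissue at E12.5. Each stage has 1 library. Hoxa11 has 2 libraries, both of E11.5 limb bud, and the labels do not say that they came from different litters. Input DNA of the 4 matching input libraries was not analysed here. The input of Hoxa13 at E11.5 also served Hoxa11 replicate 1, by its title, and its part in their overlap was not tested. E12.5 was prepared by an earlier protocol, so stage, tissue and protocol cannot be told apart. The E11.0 list of Hoxa13 held 50890 peaks, the E11.5 list 143460 and the E12.5 list 44699, while the Hoxa11 lists held 2953 (replicate 1) and 1647 (replicate 2). Depth in reads is not known for any list.

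Hoxa11 and Hoxa13 are homeodomain transcription factors encoded near the 5′ end of the HoxA cluster. Hoxa11 is known for its role in the forearm and lower leg, and Hoxa13 for its role in the autopod, the future hand and foot. Their genes come to be active in largely separate domains of the limb bud, and posterior Hox proteins recognise similar AT-rich sequences. A peak from whole tissue cannot tell fewer bound cells from weaker binding per cell, and does not show that both proteins sat on DNA in the same cell. All positions are 1-based in mm9. Gene annotation and sequence of that build were not used here, so sites are named by position.

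Overlap with Hoxa13 at E11.0 was the most restrictive of the 3 conditions in the rule. Of the 1023 Hoxa11 sites, 313 (30.6%) met a Hoxa13 peak in the E11.0 autopod, 810 (79.2%) at E11.5 and 662 (64.7%) at E12.5. The all-stage sites were 88.5% of the sites that met E11.0, 34.2% of those that met E11.5 and 41.8% of those that met E12.5. Membership was thus mostly a matter of the E11.0 list. For comparison, 348 sites lacked Hoxa13 at E11.0 and met it at both later stages (later-stage sites), and 165 met no Hoxa13 peak (Hoxa11-alone sites). The other 233 sites (22.8%) met Hoxa13 at other combinations of stages, 167 of them at E11.5 only, and form no class here. No test was made between the 3 classes, because sites are not replicates of a condition, and every difference between them is given as a description.

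The Hoxa11 peaks at all-stage sites ranged from weak to the strongest of the experiment. Only replicate 2 carries values per peak, which are the authors' own: a fold enrichment over the caller's background and a −log10 q-value. The fold enrichment, taken as the highest of a site's peaks, had a median of 4.68 (95% interval of the median 4.36 to 4.83) and ran from 1.62 to 17.7. A fold of 10 was exceeded at 10 sites (3.61%), and 28 sites (10.1%) lay below 3-fold. Above 10-fold there were also 5 later-stage sites (1.44% of them) and 1 Hoxa11-alone site (0.606%). Below 3-fold lay 24 later-stage sites (6.90%) and 41 Hoxa11-alone sites (24.8%). Of the 10 Hoxa11 sites with the highest scores, 6 were all-stage sites, as were 43 of the first 100 (43.0%, 33.1 to 53.3) and 24 of the lowest 100 (24.0%, exact interval 16 to 33.6), against 27.1% of all sites. Outside unplaced sequence and the dense windows described with the widths, all-stage sites were 37 of the first 100 (37.0%, 27.6 to 47.2) and 24.7% of all 910 sites. Later-stage sites were 46 of that first 100 (46.0%, 36.0 to 56.3) and 35.3% of the 910, so both classes had a higher share among the top scores than among all sites.

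Hoxa11 enrichment differed more between all-stage and Hoxa11-alone sites than between all-stage and later-stage sites. Later-stage sites had a median fold of 4.36 (4.21 to 4.56) and Hoxa11-alone sites one of 3.60 (3.43 to 3.79). The all-stage median was thus higher by 0.314 and by 1.07. The first difference is small beside the spread between sites, whose middle 50% ran from 3.73 to 6.24 in all-stage and from 3.71 to 5.46 in later-stage sites. It turned to −0.0654 when every overlap had to cover at least 50% of both intervals, and was 0.0960 without replicate 1. The difference from Hoxa11-alone sites kept its sign, at 0.540 and 0.624 in the same settings.

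**Figure D1:**
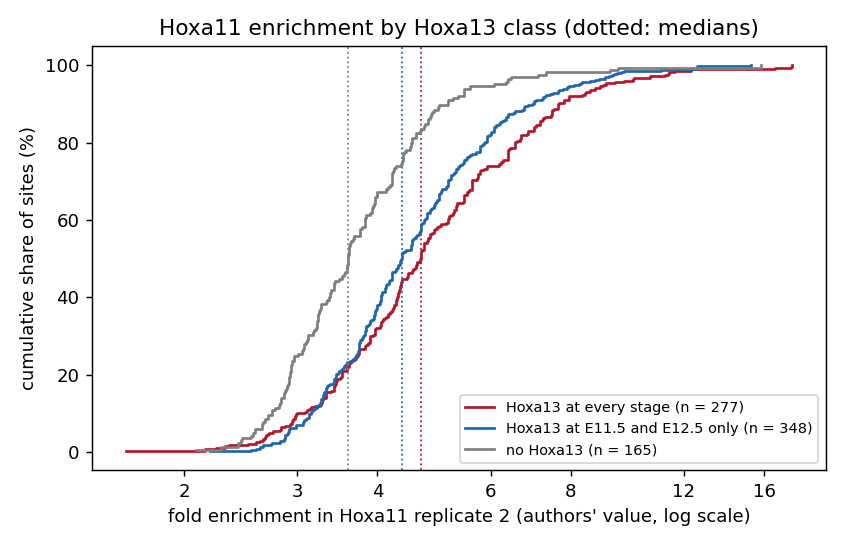
Cumulative share of Hoxa11 sites (vertical axis, percent) against the authors' fold enrichment in Hoxa11 replicate 2 (horizontal axis, log scale), for 277 all-stage, 348 later-stage and 165 Hoxa11-alone sites, with dotted lines at the medians of 4.68, 4.36 and 3.60. The all-stage and later-stage curves run close together up to their lower quartiles, 3.73 and 3.71, and the all-stage curve lies at higher folds above that, up to the strongest sites.

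Site width moved with class. The merged all-stage sites had a median width of 545 bp (494 to 603), later-stage sites 454.5 bp (424 to 482) and Hoxa11-alone sites 331 bp (312 to 366). Outside dense windows and unplaced sequence the medians were 486 bp (453 to 541), 451 bp (423 to 476) and 336 bp (313 to 371), and the intervals of the first and second overlapped. A wider interval meets any list more easily, so part of this order is built into the rule. Sites were therefore compared within 4 width classes of equal size, over the 910 sites outside unplaced sequence and outside 26 windows of 1 Mb dense in Hoxa13 peaks. From 207 to 328 bp, 11.8% of sites were all-stage sites, from 329 to 427 bp 22.0%, from 428 to 575 bp 26.4%, and above that 38.6%. Hoxa11-alone sites went from 32.0% in the narrowest class to 12.3% in the widest.

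Within width classes, the median fold of Hoxa11-alone sites was the lowest of the 3 classes of site in each case, and the distance between the other two varied. In the narrowest class the medians were 4.24 (3.32 to 4.79) for 27 all-stage, 3.83 (3.59 to 4.07) for 64 later-stage and 3.63 (3.37 to 3.90) for 73 Hoxa11-alone sites. Between 428 and 575 bp they were 4.40, 4.37 and 3.68. In the widest class they were 5.61 (4.79 to 6.40), 5.17 (4.74 to 5.77) and 3.79 (2.96 to 4.23). Widths were not equal within that class, with medians of 782, 687.5 and 658 bp in the same order. In all of the 4 width classes the intervals of the all-stage and later-stage medians overlapped. The intervals of all-stage and Hoxa11-alone sites also overlapped in the narrowest class and between 428 and 575 bp.

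The Hoxa13 peaks under all-stage sites were among the widest of the lists of E12.5 and E11.5, and less so at E11.0. Where several Hoxa13 peaks met a site, the one with the longest overlap was taken. That choice and the overlap rule itself both favour wide peaks. At E11.5 these peaks had a median width of 726 bp (685 to 764), against 286 bp for the whole list, and their median width percentile in the list was 98.8. At E12.5 the median was 374 bp (339 to 398) against 154 bp, at percentile 97.0. At E11.0 it was 332 bp (315 to 361) against 245 bp, at percentile 81.3. The 36 Hoxa11 sites that met E11.0 but were not all-stage sites had a median percentile of 75.9 (56.5 to 87.9). The widest 10% of the E11.5 list supplied the peak at 247 sites (89.2%), that of the E12.5 list at 197 sites (71.1%) and that of the E11.0 list at 105 sites (37.9%). Hoxa13 peaks that recur at all stages but lie under no replicated Hoxa11 site were often wide too, though less so. The widest 10% held 19.5% of them in the E11.0 list, 18.8% in the E12.5 list and 33.6% in the E11.5 list. At E11.0, 71 all-stage sites (25.6%) had a peak narrower than the median of that list, against 6 sites at E11.5 and 9 at E12.5. With the dense windows and unplaced sequence left out, the percentile was 98.7 in the E11.5 list, 96.5 in the E12.5 list and 78.3 in the E11.0 list.

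**Figure D2:**
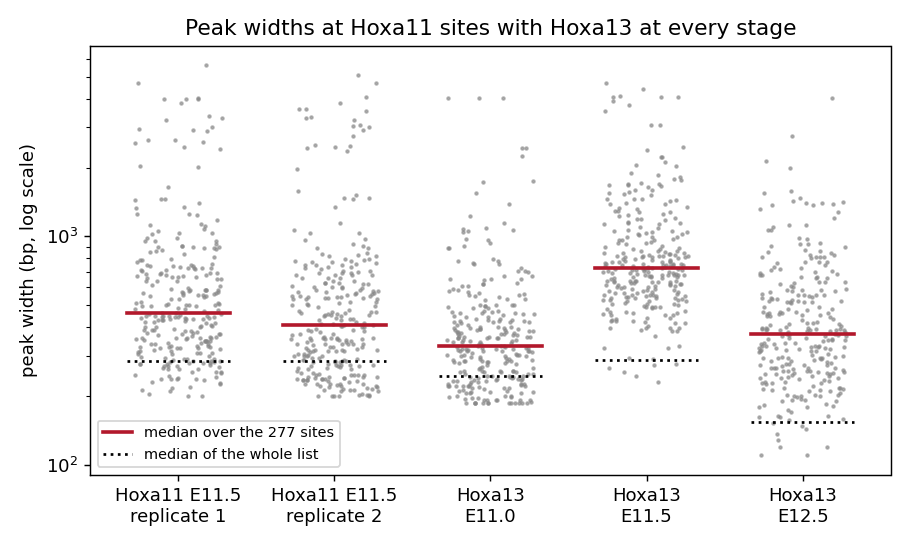
Width of the peak (bp, log scale) at each of the 277 all-stage sites in the 5 lists (grey points). Where a site had several peaks of a Hoxa11 replicate, their span from first start to last end is shown. Lines give the median over the sites (red) and the median of the whole list (dotted). The red line lies above the dotted line in every list, at 726 against 286 bp for Hoxa13 at E11.5 and at 332 against 245 bp at E11.0.

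Later-stage sites had narrower Hoxa13 peaks than all-stage sites at the stages they share. Their median Hoxa13 width was 484.5 bp (464 to 520) at E11.5 and 239.5 bp (223 to 255) at E12.5, at percentiles 93.0 and 85.0. The widest 10% of the list supplied 60.9% of them at E11.5 (55.6 to 66.1) and 41.4% at E12.5 (36.2 to 46.8). Width enters the rule through overlap, and no values of height were in these lists, so width is not read here as strength of binding.

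Among the Hoxa13 peaks that recur at all stages, the share under an all-stage site was highest in the widest 20% at each stage. The 277 all-stage sites are far fewer than these peaks, so the share could only be small. A wider peak also meets any site more easily. Of 13646 such recurring peaks in the E11.0 list, 307 (2.25%) lay under an all-stage site, as did 284 of 13767 in the E11.5 list (2.06%) and 312 of 13760 in the E12.5 list (2.27%). At E11.5, their median width was 718 bp, against 388 bp for recurring peaks without any replicated Hoxa11 site. At E12.5 the values were 372 and 184 bp, and at E11.0 332 and 288 bp. Sorted by width, the widest 20% of recurring E11.5 peaks (527 bp and more) held an all-stage site in 8.21% of cases and the narrowest 20% in 0.218%. At E12.5 the shares were 8.07% and 0.218%. At E11.0 they were 4.40% and 1.83%, with 1.72%, 1.43% and 1.87% in between.

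**Figure D3:**
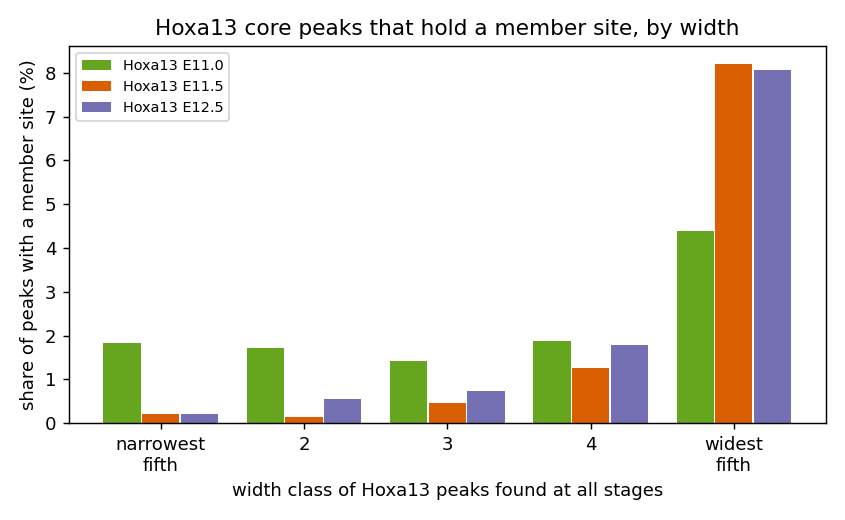
Share of Hoxa13 peaks found at all stages that lie under an all-stage site (vertical axis, percent), in 5 classes of equal size by peak width (horizontal axis), for each stage. The bars of E11.5 and E12.5 climb from 0.218% to 8.21% and 8.07%, while those of E11.0 lie between 1.43% and 1.87% in the first 4 classes and reach 4.40% in the widest.

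Peak widths went together across all-stage sites more than Hoxa11 fold and Hoxa13 width did. Hoxa11 width in a replicate was the span over all of its peaks at a site. Spearman's rho was taken over the 277 sites, which share libraries and are not independent. It was 0.678 between the widths of both Hoxa11 replicates and 0.634 between Hoxa13 widths at E11.5 and E12.5. Between E11.0 and E11.5 it was 0.364, and between E11.0 and E12.5 it was 0.391. Fold enrichment of Hoxa11 had a rho of 0.253 with the E11.5 width of Hoxa13, of 0.153 with the E12.5 width and of 0.00547 with the E11.0 width. In the 225 sites outside dense windows and unplaced sequence the first of these fell to 0.139. These weak values are given as descriptions.

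Distances between the peaks of both proteins were short, as the overlap in the rule largely fixes, and are given as a description. The distance from the Hoxa11 replicate 2 summit to the midpoint of the nearest overlapping Hoxa13 peak had a median of 68.5 bp (59.5 to 85.5) at E11.0, 90.5 bp (68.5 to 105.5) at E11.5 and 65.5 bp (53.0 to 74.5) at E12.5. Chromatin had been sheared to fragments of 200 to 1000 bp, so these distances are shorter than a fragment. Within 100 bp of a Hoxa13 midpoint lay 61.4% of the summits at E11.0, 53.8% (47.7 to 59.8) at E11.5 and 66.4% (60.5 to 72.0) in the E12.5 list. The summit itself lay inside a Hoxa13 peak of the E11.0 list at 221 sites (79.8%, 74.6 to 84.4), of the E11.5 list at 270 sites (97.5%, 94.9 to 99.0) and of the E12.5 list at 251 sites (90.6%, 86.5 to 93.8). At 210 sites (75.8%, 70.3 to 80.7) it lay inside peaks of all 3 stages. Peaks of E11.5 are the widest, which favours them in this count.

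Overlaps were long relative to the 1 bp that the rule required. The longest overlap with a single Hoxa13 peak had a median of 300 bp in the E11.0 list, 483 bp in the E11.5 list and 330.0 bp in the E12.5 list. The median share of a site covered by Hoxa13 peaks was 61.2% in the E11.0 list, 100% in the E11.5 list and 70.1% in the E12.5 list. The stretch covered at all 3 stages had a median of 250 bp. At 5 sites (1.81%) no base was covered at all of them, because different parts of the site met different stages. In 206 sites (74.4%) every list contributed a single peak.

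**Figure D4:**
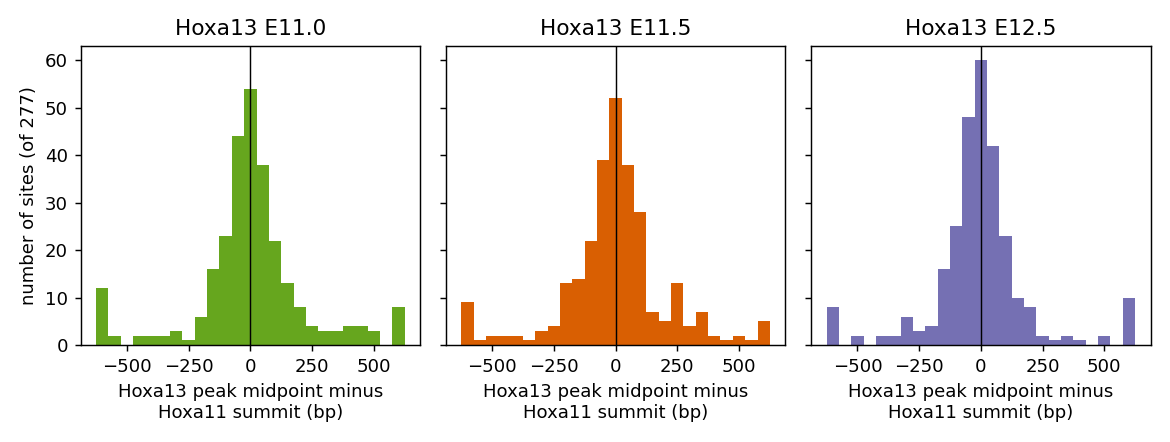
Number of all-stage sites (vertical axis) by the distance in bp from the Hoxa11 replicate 2 summit to the midpoint of the Hoxa13 peak with the longest overlap (horizontal axis), at each stage, which is not always the nearest midpoint, as used in the text, where a site meets several Hoxa13 peaks. The end bars also hold all sites farther out, and the tallest bar is the central one at every stage.

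The median distance was shorter at later-stage than at all-stage sites, with intervals of the medians that overlapped narrowly at both stages. At the later-stage sites it was 61 bp (53.0 to 69.5) at E11.5 and 44.5 bp (39.0 to 53.5) at E12.5. Within 100 bp at E11.5 lay 69.0% (63.8 to 73.8) of their summits, against 53.8% (47.7 to 59.8) at all-stage sites. These intervals did not overlap. At E12.5 the shares were 73.3% (68.3 to 77.9) and 66.4% (60.5 to 72.0), with overlapping intervals. The summit lay inside the Hoxa13 peak at 96.8% of later-stage sites at E11.5 and 85.1% at E12.5. Outside dense windows and unplaced sequence the later-stage medians were 59 bp (51.0 to 67.5) at E11.5 and 42.5 bp (37.5 to 51.5) at E12.5. Those of all-stage sites were 73 bp (57.0 to 93.0) and 55.5 bp (45.0 to 69.0), and the intervals again overlapped. The shorter distances went with narrower sites, and their relation was not tested.

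The 5 lists were tightly aligned at 81 all-stage sites. There the midpoints of both Hoxa11 replicates and of the Hoxa13 peaks of 3 stages fell within 100 bp of each other (29.2%). At 160 sites they fell within 200 bp (57.8%), and at 20 sites they were spread over more than 1000 bp. The midpoint of a Hoxa11 replicate was that of the span over all of its peaks at the site. The tightest was chr5:139012123-139012995, where the midpoints spanned 12 bp although widths ran from 547 bp (Hoxa13 in the E11.0 autopod) to 941 bp (Hoxa13 in the E11.5 limb bud). Its fold enrichment was 7.25. Next came chr6:52166645-52166991 with a span of 18.5 bp, chr8:68317501-68317852 with 21.5 bp, chr16:55168059-55168345 with 29.5 bp and chr9:87347436-87347987 with 31.0 bp. Their fold enrichments of 3.50, 6.86, 2.995 and 5.62 lay on both sides of the median of 4.68. The relation of alignment to fold over all of the all-stage sites was not tested.

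The strongest all-stage site by −log10 q was chr9:29126172-29126784, which also ranked first among all 1023 Hoxa11 sites. Its fold enrichment was 16.6 and its −log10 q 163.5. The Hoxa11 peaks were 584 bp wide in replicate 1 and 536 bp in replicate 2, and the Hoxa13 peaks 217, 760 and 532 bp from E11.0 to E12.5. The summit lay inside all of them, 39.5, 9.0 and 27 bp from the Hoxa13 midpoints in order of stage. The narrow E11.0 peak, under a Hoxa11 peak of the highest rank, is below the 245 bp median of its list.

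The second, chr12:9265156-9266052, was 17.6-fold enriched with a −log10 q of 122.9. Its Hoxa13 peaks were 347, 793 and 489 bp wide from E11.0 to E12.5, and the summit lay outside the E11.0 peak, 207.5 bp from its midpoint. The site with the highest fold, 17.7, was chr3:6381507-6382977 (−log10 q 101.4). It had 2 Hoxa11 peaks in replicate 2 under 1 peak of 1329 bp in replicate 1, and Hoxa13 peaks of 205, 1324 and 252 bp. Here again the E11.0 peak was narrow, and its overlap was 205 bp of a site of 1471 bp.

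At chr15:102844833-102845401, all lists met at the summit. The Hoxa13 midpoints lay 0.5 bp from it at E11.0, 18.0 bp at E11.5 and 6.0 bp at E12.5, with peaks of 381, 620 and 296 bp. The fold enrichment was 11.3 and the −log10 q 100.7. At chr2:171458966-171459773 (12.3-fold), by contrast, the summit lay 323.5, 287 and 213.5 bp from the Hoxa13 midpoints and outside the E11.0 peak of 321 bp, although the midpoints of the 5 lists spanned 137.5 bp. There the Hoxa11 summit sat off the centre of its own peak.

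Among the remaining 5 of the 10 highest-scoring sites outside dense windows, chr10:100254837-100255653 was 11.6-fold and chr5:132543592-132544570 was 9.37-fold enriched, with the summit inside peaks of all stages at both. The chromosome 5 site had the widest E11.0 peak of the 10, at 603 bp. A site on chromosome 3, chr3:66874127-66875569 (10.6-fold), had an E11.5 peak of 1683 bp and an E11.0 peak of 344 bp that missed the summit. The site chr6:61166402-61167074 (8.72-fold) had midpoints of all lists within 33.5 bp. The widest all-stage site, chr12:8636964-8642569 (11.2-fold), spanned 5606 bp and met 2 Hoxa13 peaks in the E11.0 list, 2 in the E11.5 list and 3 in the E12.5 list.

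**Figure D5:**
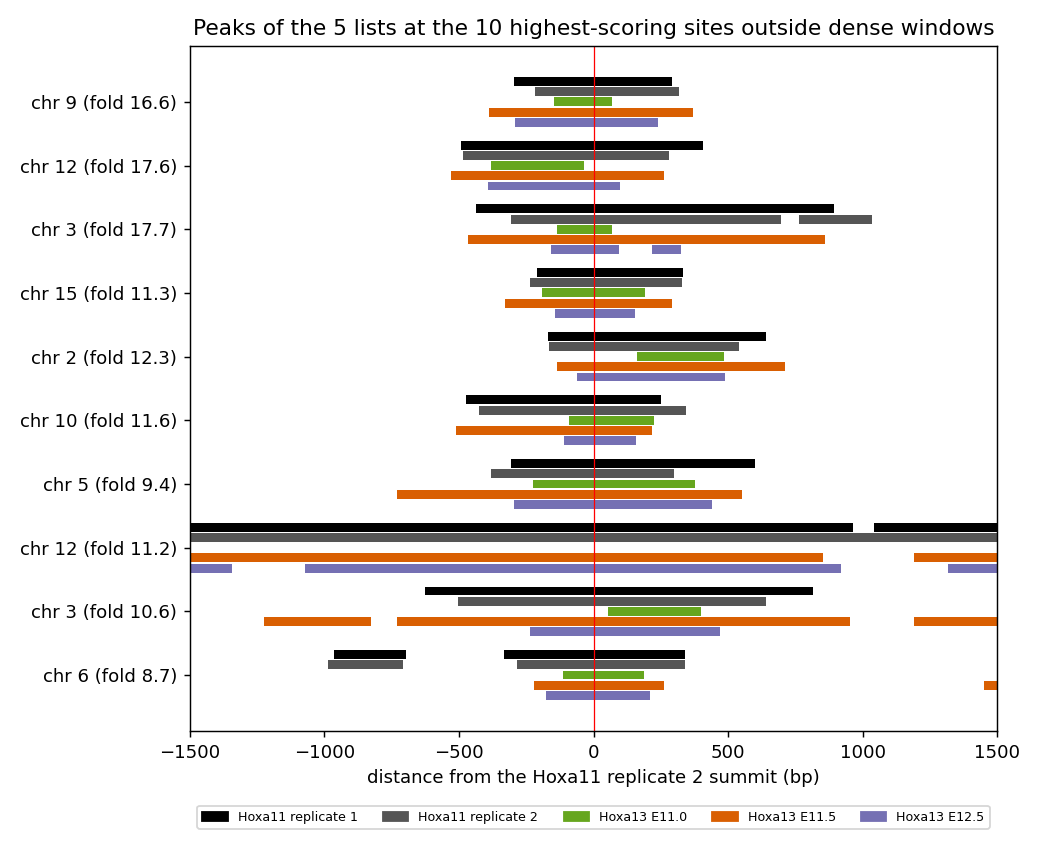
Extent of peaks in the 5 lists (coloured bars) around the Hoxa11 replicate 2 summit (0 on the horizontal axis, bp) at the 10 highest-scoring all-stage sites outside dense windows and unplaced sequence, cut at the edges of the axis. The E11.0 bar is shorter than the E11.5 bar wherever both are in view, for example 217 against 760 bp at the first and 205 against 1324 bp at the third, and at the site of 5606 bp the E11.0 peaks lie beyond the axis.

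The windows of the Hox gene clusters held 6 all-stage sites. That these windows contain the clusters is background knowledge of the build, and sites in them were not placed inside or outside a gene. In the HoxA window, chr6:52000001-53000000, 4 of 7 Hoxa11 sites were all-stage sites. The strongest, chr6:52176071-52176864, was 5.80-fold enriched, with Hoxa13 peaks of 618, 802 and 628 bp from E11.0 to E12.5. The other 3 had folds of 3.83 (chr6:52150915-52151233), 3.50 (chr6:52166645-52166991) and 3.27 (chr6:52551529-52552109). HoxA encodes both proteins mapped here.

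The other Hox windows had fewer. HoxC, chr15:102000001-103000000, held the 11.3-fold site among 3 Hoxa11 sites, and the HoxB window, chr11:96000001-97000000, held chr11:96142916-96143478 (3.73-fold) among 2. In the HoxD window, chr2:74000001-75000000, none of 4 Hoxa11 sites was an all-stage site: 3 were later-stage sites, with folds of 9.18, 6.87 and 11.6, and 1 met Hoxa13 at E11.5 only. HoxD is the cluster whose posterior genes act with HoxA in digit formation. Counts this small allow no comparison between clusters.

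A part of the all-stage sites lay on unplaced sequence or in windows with an unusually high count of Hoxa13 peaks. Dense windows held 38 of them (13.7%, 9.89 to 18.3) and unplaced sequence 14 (5.05%), together 52 sites (18.8%, 14.3 to 23.9). Together they held 27 later-stage sites (7.76%, 5.18 to 11.1) and 8 Hoxa11-alone sites (4.85%). Of all 1023 Hoxa11 sites, 910 lay outside both. All-stage sites were 24.7% of these 910, against 27.1% of the 1023. Dense windows are those whose Hoxa13 count in any list exceeded the upper quartile by more than 3 interquartile ranges, so they were defined on lists that the rule also used. The 52 sites were wide, with a median of 1008.5 bp against 486 bp for the other 225, and their median fold was 4.85 against 4.66. Repeated sequence was not screened, and its part in these sites was not tested.

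Chromosome X showed this most clearly. It held 36 all-stage sites (13.0%), of which 1 lay outside the dense windows, against 22 later-stage (6.32%) and 3 Hoxa11-alone sites (1.82%). Of its 86 Hoxa11 sites, 41.9% were all-stage sites, against 27.1% of all sites. The window chrX:121000001-122000000 held 14 all-stage and 10 later-stage sites among 25 Hoxa11 sites, and the window before it 11 and 5 among 23. In another dense window, chrX:92000001-93000000, 3 of 19 Hoxa11 sites were all-stage sites. The highest-scoring all-stage site on the chromosome, chrX:120374486-120377777, was 8.89-fold enriched and 3292 bp wide. On unplaced sequence, Un_random 3643433 to 3648129 held rank 4 of all Hoxa11 sites by score, with a −log10 q of 103.0 but a fold of only 6.59 over 4697 bp. On 4_random, the sites from 94139 to 98230, 136633 to 137512 and 99309 to 102909 had folds of 8.33, 11.4 and 7.49.

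Neighbouring all-stage sites were mostly of this kind. Within 10 kb of another all-stage site lay 49 sites (17.7%, 13.4 to 22.7), in 17 groups, the largest of 6 sites on 4_random. Without dense windows and unplaced sequence 13 of 225 remained (5.78%, 3.11 to 9.68), in 6 groups, close to the 5.30% of later-stage sites and 7.01% of Hoxa11-alone sites counted in the same way. One of the 6 groups was the pair in the HoxA window, chr6:52166645-52166991 and chr6:52176071-52176864.

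Very short overlaps were rare, as 271 of the 277 sites remained when at least 100 bp of overlap was required. Stricter rules kept fewer: 193 with the site midpoint inside a Hoxa13 peak, and 97 with 50% of both intervals covered. The smallest overlap with any stage was 17 bp, at chr12:74622635-74623416 with the E11.0 peak, followed by 48 bp at chr6:94021931-94022378 (E12.5), 53 bp at chr14:81372329-81372904 (E11.0), 56 bp at chrX:121047054-121050115 (E11.0) and 72 bp at chr1:152711635-152711976 (E11.0). Just outside lay chr3:6887332-6887771, a later-stage site whose nearest E11.0 peak began 1 bp away, then chr17:74251592-74251906 at 52 bp. They were followed by chr3:5329821-5330743, which missed E12.5 by 67 bp, chrX:122486376-122487808 (E11.0, 141 bp) and chr18:49353971-49354477 (E11.0, 179 bp). For later-stage sites the nearest E11.0 peak was a median of 17964 bp away, and 34 of 348 had one within 1000 bp.

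The weakest all-stage sites by score are given by their values. The lowest by score was chrX:123302171-123302553, with a fold of 1.62 and a −log10 q of 1.39, under Hoxa13 peaks of 707, 488 and 436 bp from E11.0 to E12.5. Next was chr18:84580264-84580638, with a fold of 2.70 and a −log10 q of 1.99, under peaks of 461, 706 and 205 bp. At both, the summit lay inside Hoxa13 peaks of all stages, although at the first it was the last base of the site.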

How the data were processed

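The submitters' processing notes name MACS2 (2.1.0), Bowtie2 (2.2.2), CASAVA (1.4) and build mm9, with no role, threshold or use of input given. The deposited lists of Hoxa13 and Hoxa11 replicate 1 hold 3 columns of positions. Replicate 2 has 10 columns in MACS2 narrowPeak order: per the file's values, the deposited score is 10 times the −log10 q-value without its decimals, and the deposited fold enrichment is a ratio over the caller's background. Positions, the authors' score and fold were used as deposited.

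Overlaps and merging were computed in Python 3.11.15 (numpy 2.4.6, pandas 2.3.3), tested on simulated intervals and checked against bedtools 2.31.1. Intervals of shares are exact Clopper-Pearson intervals, and those of medians are exact order-statistic intervals, both at 95% (scipy 1.17.1). They cover counting error over sites only. No test was made: Hoxa13 has 1 library per stage, and peaks are not replicates. Precision per peak cannot be given because depth is unknown.

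Members, lists and named sites were chosen with earlier results of these data known. Sites were named by fixed rules (score, width, alignment, smallest overlap, nearest misses, lowest score, Hox windows). The planned counts of motifs and gene starts were not run because no mm9 genome or annotation was used here.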

Additional observations from a re-analysis of the deposited data

How the results depend on the processing

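The number of all-stage sites stayed within 1.5 times 277 in all alternatives except 50% reciprocal overlap (97 sites, 11.3% of sites) and Hoxa11 replicate 1 alone. With a single replicate there were 380 to 588 sites, 19.9% to 23.1% of sites, with median widths of 331 to 337 bp. With replicate 2 alone the median fold was 4.21, 0.0960 above later-stage and 0.624 above Hoxa11-alone sites. Under 50% reciprocal overlap the median width was 440.0 bp, the fold difference from later-stage sites turned to −0.0654, and that from Hoxa11-alone sites was 0.540. With the site midpoint inside a Hoxa13 peak, 18.9% of sites qualified, with a median width of 460.0 bp. With replicate 2 peaks of −log10 q of at least 5, the median fold was 4.91 and the differences 0.235 and 0.984. Median width was 486 bp without dense windows and unplaced sequence. It was 335 bp counted as the stretch shared by the spans of both replicates, each from first to last peak of the site. Without chromosome 12 before 30 Mb as well, chosen after seeing the data, 23.4% of sites qualified, with a median width of 481 bp. With the site midpoint in place of the summit, the median distance to Hoxa13 at E11.5 was 65.0 bp and 69.7% of sites had it inside peaks of all stages. A neighbour lay within 50 kb for 25.3% of sites, and within 10 kb for 5.78% without dense windows and unplaced sequence. The causes of these shifts were not tested, apart from what each setting leaves out. Unknown depth limits every list, and absence of a peak does not show absence of binding.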

Other observations

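The start of chromosome 12 held many all-stage sites, a pattern chosen after the values were seen. Of 28 all-stage sites on the chromosome, 18 (64.3%, 44.1 to 81.4) lay before 30 Mb, against 3 of 16 later-stage and 1 of 11 Hoxa11-alone sites. The chromosome held 67 Hoxa11 sites of any class. Outside dense windows and unplaced sequence, leaving out this stretch took all Hoxa11 sites from 910 to 885 and all-stage sites from 225 to 207. The 18 all-stage sites had a median fold enrichment of 4.67, from 2.32 to 17.6, and their median width was 688 bp. None of these sites fell in a dense window. They include 4 pairs of sites within 10 kb of each other: chr12:9265156-9268664 spanned 3509 bp, chr12:18033091-18034383 1293 bp, chr12:20249385-20250969 1585 bp and chr12:24465421-24466812 1392 bp. Likeness of sequence between them was not tested.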
